A study of Mus musculus with 4 samples.

Results

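The genes described here build and run the DNA replication fork: the origin recognition complex and its helpers, the MCM helicase, the kinases that fire origins, the polymerases, the sliding clamp and its loader, and the proteins that join fragments and protect the fork. A fixed list of 49 gene symbols was looked up by name in a table of 53465 genes, and all 49 were found and passed the filter on low counts. The counts came from RNA sequencing of CD8+ T cells of mouse spleen, stimulated for 24 h with beads carrying antibodies to CD3 and CD28, which stand in for antigen and costimulation. Libraries numbered 2 from cells labelled PP2Cm KO and 2 from cells labelled wild type (WT). PP2Cm is encoded by Ppm1k and sits in mitochondria, where it removes phosphate from an enzyme complex and so switches on the breakdown of leucine, isoleucine and valine. Both groups carried the same stimulation and differed by label in PP2Cm alone. Sources used here give no mouse strain, age or sex, and do not say how much of the gene was deleted or in which cells. The labels call the replicates biological without naming animals, so p-values measure only the spread between these libraries.

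The labels conflict. Each library's title and genotype field give 1 genotype, while its description code starts with the abbreviation of the opposite one. Title and genotype field set the groups here, and every sign would turn if the codes were right. Ppm1k itself had 157 and 206 counts in the libraries labelled KO, against 102 and 94 counts in those labelled WT, so its level went against the labels (log2 fold change 0.97, SE 0.23; edgeR adjusted p = 0.186). With 1 library at a time left out, this log2 fold change ran from 0.73 to 1.24. A total per gene cannot tell a deleted exon from the rest. Library totals were 13394074 and 14199020 counts for the label KO, against 12967251 and 17316284 for the label WT. Defining CD8 T cell markers were abundant (Cd8a 547 and 511 CPM, counts scaled to library size, in the libraries labelled KO, against 542 and 523 CPM in those labelled WT). Of all genes tested, 23.3% lay lower in the libraries labelled KO with no overlap between labels and 21.5% higher, and of the 12 CD8 T cell markers 7 lay lower, or 58.3%, and 0 higher. Marker sums of other cell types, as CPM in the 2 libraries labelled KO against the 2 labelled WT, were 305 and 269 against 427 and 366 for B cells (10 markers, 2 of 8 tested lower without overlap), 232 and 224 against 295 and 264 for CD4 and regulatory T cells (7 markers, all tested, 4 higher, Cd4 among them, and 2 lower), 154 and 128 against 217 and 216 for myeloid and dendritic cells (16 markers, 2 of 8 tested lower), and 98.8 and 94.97 against 107 and 124 for NK cells (7 markers, 2 of 5 tested lower). Those for erythroid cells and platelets were 3.16 and 4.50 against 6.38 and 12.2 (9 markers, 4 of 4 tested lower). Most of the first 4 of these sums came from Ighm, Ctla4 with Tnfrsf4, Ly6c2 and Eomes, while the defining markers Cd79a, Itgam, Ncr1 and Alas2 stood at no more than 1.12, 0.353, 1.18 and 0 CPM in any library. Others of these lists stood higher, with up to 10.3 CPM for Cd79b, 16.2 CPM for H2-Ab1, 5.65 CPM for Itgax, 20.5 CPM for Klrc1 and 6.06 CPM for Itga2b, and Cd4 had 133 and 74 counts in the libraries labelled KO, against 39 and 80 counts in those labelled WT. Their part in the results below was not tested.

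A quiescent T cell holds few replication proteins and makes them as it leaves rest. During G1 the origin recognition complex, Cdc6 and Cdt1 load MCM helicases onto DNA, a step called licensing. Cyclin E with its kinase partner, and Cdc7 with its activator Dbf4, then switch the loaded helicases on, and geminin blocks further loading until division is over. Cdc45 and the GINS complex join the helicase, polymerase alpha with primase starts each strand, and polymerases delta and epsilon extend it on the clamp PCNA. Transcription of many of these genes is known to be driven by E2F factors, which are freed when the retinoblastoma protein is phosphorylated.

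The sequences that bear on this shared control are the promoters, which were read from RefSeq windows (GRCm38.p6) that run from 250 bases before to 50 bases after each start site. An E2F motif was searched as TTTCCCGC, TTTGGCGC, TTTCGCGC or TTTGCCGC on both strands. Of the 49 genes, 39 have a window, and 17 of these, or 43.6%, held a match in at least 1 window. A RefSeq start site can lie away from the start of the gene in the deposited table. The window of Timeless, with no match, runs from 128237816 to 128238115 on chromosome 10, inside a gene that starts at 128232065. Among all genes with a window the share was 2.6%, and among those with enough counts to be tested it was 5.01%. Each gene was given the highest number of CG in any of its windows. The median of this number was 24 for the replication genes, 22 for genes tested and 8 for all genes. The shares were therefore also taken over genes with at least 20 CG in a window. There, 14 of 28 replication genes and 6.31% of 5480 tested genes held a match in any window. By role, 5 of 7 MCM family genes with a window held it, as did 4 of 8 licensing genes and 4 of 7 polymerase and primase genes, against 1 of 5 clamp and loader genes and 0 of 3 kinase genes. Among lists set beside them, the motif stood in 11 of 37 further replication factors, 0 of 11 genes of deoxynucleotide supply and 1 of 22 mitosis genes. A match is a description of letters and shows no binding.

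Windows of 4 members are printed here, with matches in capitals. Mcm6 and Mcm3 are helicase subunits whose windows hold more than 1 match each, and those of Mcm6 at −110 and −106 overlap. Lig1 had the largest negative log2 fold change of the 49 genes, and Orc2 the largest positive one among genes with a window. Another window of Orc2, from 58501377 to 58501676, has no match either and is not printed.
Mcm6, minus strand of chr1:128359656-128359955: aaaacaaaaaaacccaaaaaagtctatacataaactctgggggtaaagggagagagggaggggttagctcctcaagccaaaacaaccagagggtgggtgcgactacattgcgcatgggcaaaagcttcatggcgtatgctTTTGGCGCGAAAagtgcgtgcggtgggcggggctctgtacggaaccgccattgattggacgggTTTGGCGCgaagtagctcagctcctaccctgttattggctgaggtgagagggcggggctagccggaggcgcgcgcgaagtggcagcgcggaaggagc
Mcm3, minus strand of chr1:20820263-20820562: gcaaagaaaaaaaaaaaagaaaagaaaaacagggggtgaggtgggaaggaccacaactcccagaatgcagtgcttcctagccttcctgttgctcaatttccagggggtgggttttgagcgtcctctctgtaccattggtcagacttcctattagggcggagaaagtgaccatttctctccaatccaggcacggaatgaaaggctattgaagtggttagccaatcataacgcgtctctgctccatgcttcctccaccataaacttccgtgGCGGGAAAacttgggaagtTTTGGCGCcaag
Lig1, plus strand of chr7:13278576-13278875, the window of 3 that holds a match: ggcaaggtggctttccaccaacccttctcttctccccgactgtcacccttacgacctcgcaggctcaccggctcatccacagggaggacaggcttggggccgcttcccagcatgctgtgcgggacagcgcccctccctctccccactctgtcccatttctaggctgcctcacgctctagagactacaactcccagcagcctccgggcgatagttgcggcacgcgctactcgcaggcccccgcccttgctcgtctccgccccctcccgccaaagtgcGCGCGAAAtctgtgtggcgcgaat
Orc2, minus strand of chr1:58505060-58505359, with no match: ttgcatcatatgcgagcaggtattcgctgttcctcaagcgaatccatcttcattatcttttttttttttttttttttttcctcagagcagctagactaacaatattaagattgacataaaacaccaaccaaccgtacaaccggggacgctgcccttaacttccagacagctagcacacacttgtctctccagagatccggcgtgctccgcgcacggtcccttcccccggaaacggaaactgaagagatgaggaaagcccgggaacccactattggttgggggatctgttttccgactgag
In the 17 genes with a match there were 23 matches, 16 of them between 100 bases before and 50 bases after the start site. The median log2 fold change between labels was −0.13 for these 17 genes, 12 of them negative, and −0.01 for the 22 genes with a window and no match, 11 of them negative. Whether these medians differ was not tested.

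**Figure D1:**
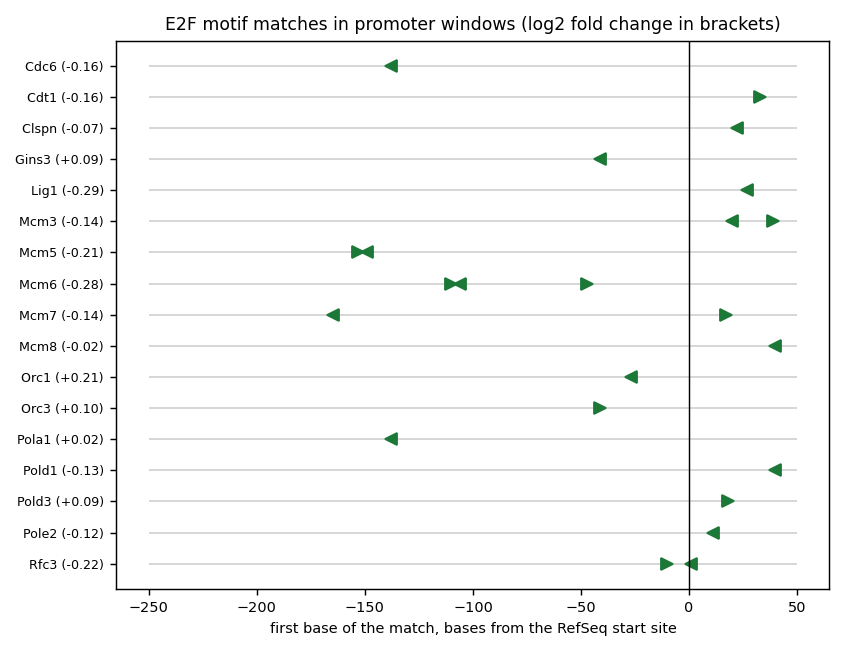
Positions of E2F motif matches in the promoter windows of the 17 replication genes that hold one. The x axis gives the first base of a match in bases from the RefSeq start site (line at 0), arrowheads give its strand, grey lines the window searched, and the number after each name is the log2 fold change, labelled KO minus labelled WT. Of 23 matches, 16 lie between 100 bases before and 50 after the start.

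The comparison the design implies is whether replication genes differ with the PP2Cm label after activation. No replication gene passed the test. By edgeR's quasi-likelihood test with adjustment over all 13528 genes tested, 0 of 49 passed an adjusted p of 0.05, where 28 genes, or 0.207%, passed in all, 0.103% with a higher and 0.103% with a lower level under the label KO. The smallest adjusted p among the 49 was 0.247. At an unadjusted p under 0.05, 2 were higher, Orc2 and Ccne2, and 1 was lower, Lig1, where 5.7% of all genes were higher and 7.23% lower at that level. DESeq2 called 0 of the 49 and 276 genes, or 2.04%, in all.

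The log2 fold changes of the 49 genes ran from −0.29 to 0.42, with 19 positive and 30 negative and a median of −0.04. Over all genes tested 6510 were positive and 7018 negative, with a median of −0.01. Groups did not overlap, with the label KO above, in 9 of the 49, or 18.4%, where 21.5% of all genes did. The label KO lay below, without overlap, in 12, or 24.5%, where 23.3% of all genes did, so both shares were near the background. With 2 against 2 libraries the smallest p an exact two-sided permutation test of 1 value can give is 0.333.

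How large a difference these libraries leave room for is given by the 95% limits. In 43 of the 49 genes, or 87.8%, the limits lay within a 1.5-fold difference in either direction. Over all genes tested 43.8% had limits that narrow, and over those with a mean of at least 20 CPM, which all 49 genes reach, 68.4%. That floor does not match other genes to the 49 by level, and many of the 49 lie well above it. Whether level accounts for the gap was not tested. The 6 genes with wider limits were Orc2 (0.11 to 0.62 on the log2 scale), Mcm6 (−0.59 to 0.02), Cdc7 (−0.40 to 0.60), Dbf4 (−0.21 to 0.79), Ccne2 (0.07 to 0.78) and Fen1 (−1.37 to 1.59). In bulk samples, fewer cells in S phase and less RNA per cell cannot be told apart.

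**Figure D2:**
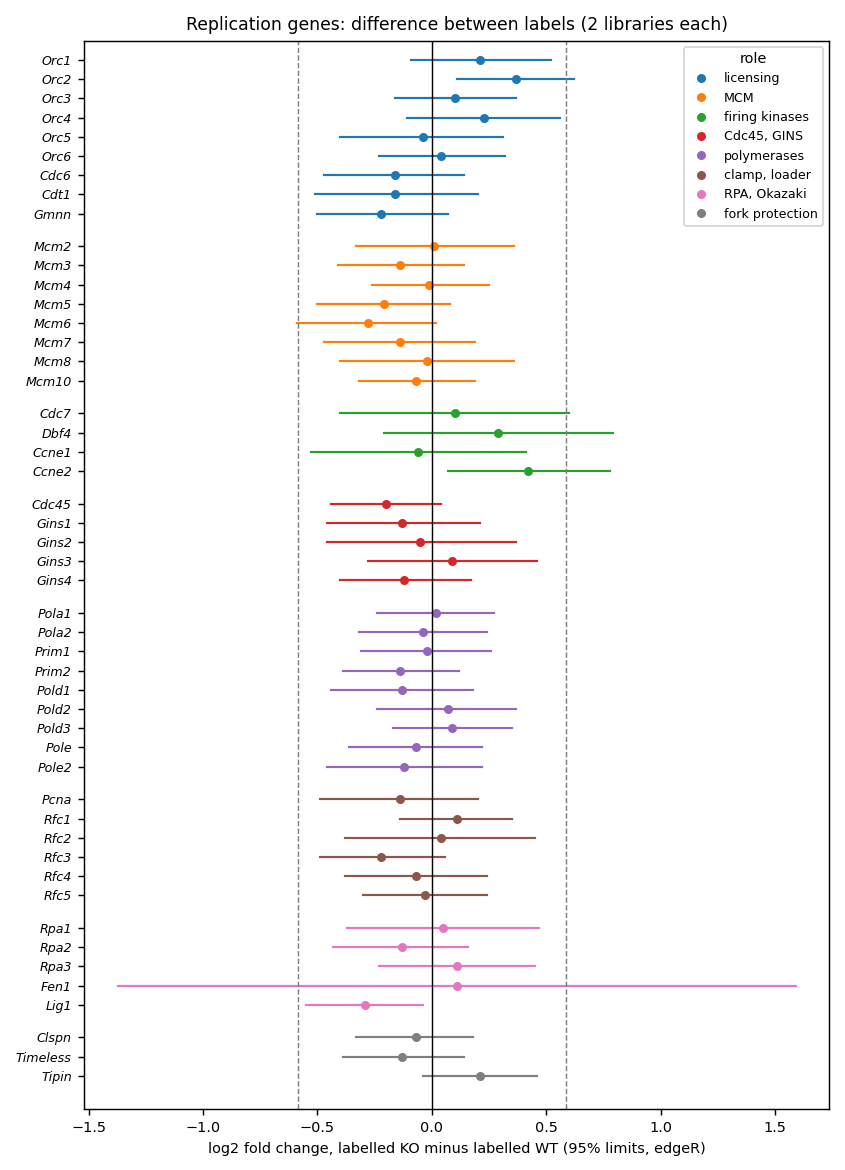
Log2 fold change, labelled KO minus labelled WT, of each of the 49 replication genes with its 95% limits from edgeR (2 libraries per label), coloured by role. Dashed lines mark a 1.5-fold difference in either direction. The limits of 43 genes stay between the lines, and those of Fen1 are the widest.

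No licensing gene passed the test. The subunits Orc1, Orc2, Orc3 and Orc4 of the origin recognition complex each lay higher in the libraries labelled KO, without overlap, while Orc5 and Orc6 overlapped. Of the 9 licensing genes these 4 made 44.4%, where 21.5% of all genes lay higher without overlap. Lower without overlap were 22.2% of the 9, where 23.3% of all genes were. Orc3 came close to overlap, with 96.8 and 103 CPM in the libraries labelled KO, against 95.5 and 90.8 CPM in those labelled WT. Orc2 (ENSMUSG00000026037, chromosome 1 from 58462771 to 58505109, GRCm38), had 134 and 142 CPM in the libraries labelled KO, against 103 and 111 CPM in those labelled WT. Orc1, the subunit whose level varies most through the cell cycle in mammalian cells, had 85.7 and 78.6 CPM against 66.2 and 75.6 CPM. Neither passed the test: the fold was 1.29 for Orc2 (log2 fold change 0.37, SE 0.11; edgeR adjusted p = 0.247) and 1.16 for Orc1 (0.21, SE 0.13; adjusted p = 0.548).

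Cdc6, the ATPase that recruits MCM to origins, had 116 and 115 CPM in the libraries labelled KO, against 116 and 142 CPM in those labelled WT. For Cdt1, which carries MCM to the origin, the values were 125 and 96.5 CPM against 116 and 131 CPM. Gmnn, which encodes geminin, the inhibitor of Cdt1, had 73.2 and 73.8 CPM against 80.5 and 90.2 CPM. Gmnn lay lower in both libraries labelled KO, Cdt1 overlapped, and Cdc6 was set apart by less than 1 CPM, its groups meeting at 116 CPM. The log2 fold change was −0.22 for Gmnn (SE 0.12), −0.16 for Cdt1 (SE 0.15) and −0.16 for Cdc6 (SE 0.13), and the smallest edgeR adjusted p was 0.509. Over the 9 licensing genes 5 log2 fold changes were positive and 4 negative, with a median of 0.04.

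The MCM helicase is a ring of 6 related subunits, Mcm2 to Mcm7, that unwinds DNA ahead of the fork. Mcm6 (ENSMUSG00000026355, chromosome 1 from 128331590 to 128359664) had 790 and 679 CPM in the libraries labelled KO, against 858 and 931 CPM in those labelled WT. Mcm5 had 808 and 723 CPM against 848 and 924 CPM, and Mcm3 had 636 and 608 CPM against 650 and 717 CPM. These 3 of the 6 subunits lay lower in both libraries labelled KO, without overlap, where 23.3% of all genes did.

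The other 3 subunits overlapped between labels. Mcm2 had 705 and 566 CPM in the libraries labelled KO, against 593 and 667 CPM in those labelled WT. Mcm4 had 513 and 494 CPM against 497 and 515 CPM, and Mcm7 had 575 and 485 CPM against 538 and 632 CPM. The second library labelled KO was the lowest of the 4 for all 6 subunits, and the second labelled WT was the highest for 5 of them.

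Summed over the 6 subunits the level was 4028 and 3556 CPM in the libraries labelled KO, against 3983 and 4386 CPM in those labelled WT. The sums overlapped. The log2 fold changes ran from −0.28 for Mcm6 (SE 0.13; edgeR adjusted p = 0.42) to 0.01 for Mcm2 (SE 0.14; adjusted p = 0.981), with 5 of 6 negative and a median of −0.14. Mcm10, which stabilises the active helicase, had a log2 fold change of −0.07, and Mcm8, a relative that works in recombination repair, −0.02; both overlapped between labels.

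Kinase genes that fire origins had the highest median of any role, 0.20 over 4 genes on the log2 scale. Ccne2 (ENSMUSG00000028212, chromosome 4 from 11191351 to 11204779) encodes cyclin E2, a partner of CDK2, and had 40.0 and 45.0 CPM in the libraries labelled KO, against 32.8 and 30.6 CPM in those labelled WT. Its fold of 1.34 was the largest of the 49 genes (log2 fold change 0.42, SE 0.15; edgeR adjusted p = 0.311). Ccne1, which encodes cyclin E1, had 158 and 149 CPM against 125 and 194 CPM, so the libraries labelled WT lay on either side of those labelled KO.

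Dbf4, the activator of the kinase Cdc7, had 73.1 and 78.7 CPM in the libraries labelled KO, against 76.0 and 48.7 CPM in those labelled WT. The second library labelled WT stood apart from the other 3. The log2 fold change of Dbf4 was 0.29 (SE 0.21; edgeR adjusted p = 0.623), and it was 0.65 without the first library labelled WT and 0.00 without the second. Cdc7 itself had 31.9 and 45.9 CPM against 33.0 and 39.4 CPM, with a wider gap within the label KO than between the group means of 38.9 and 36.2 CPM.

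Of the 5 partners of the active helicase 3 lay lower in the libraries labelled KO without overlap, or 60.0%, where 23.3% of all genes did, and 0 passed the test. Cdc45 had 139 and 136 CPM in the libraries labelled KO, against 153 and 163 CPM in those labelled WT, a log2 fold change of −0.20 (SE 0.10; edgeR adjusted p = 0.476). Gins1 (33.8 and 33.3 CPM against 36.7 and 36.4 CPM) and Gins4 (68.9 and 64.9 CPM against 73.6 and 71.5 CPM) likewise lay lower in both libraries labelled KO, while Gins2 and Gins3 overlapped. Of the 5 genes 4 were negative, with a median of −0.12.

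Polymerase genes had the narrowest range of log2 fold changes of any role. The 9 log2 fold changes ran from −0.14 for Prim2, the large primase subunit, to 0.09 for Pold3, an accessory subunit of polymerase delta, with a median of −0.04. All 9 had limits within a 1.5-fold difference. Pola1, the catalytic subunit of polymerase alpha, had 127 and 137 CPM in the libraries labelled KO, against 134 and 127 CPM in those labelled WT. Pole, the catalytic subunit of the leading strand polymerase, had 261 and 240 CPM against 285 and 241 CPM, and both genes overlapped between labels.

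Pcna encodes the ring that tethers polymerases to DNA, and the RFC complex loads it. Pcna had 481 and 419 CPM in the libraries labelled KO, against 444 and 550 CPM in those labelled WT, and the groups overlapped (log2 fold change −0.14, SE 0.14; edgeR adjusted p = 0.73). Rfc3, a small subunit of the loader, had 73.2 and 69.4 CPM against 81.4 and 84.4 CPM, while Rfc1, the large subunit, had 176 and 191 CPM against 171 and 171 CPM. Rfc3 thus lay lower and Rfc1 higher in both libraries labelled KO, by log2 fold changes of −0.22 (SE 0.12; edgeR adjusted p = 0.488) and 0.11 (SE 0.10; adjusted p = 0.727).

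Lig1 (ENSMUSG00000056394, chromosome 7 from 13277283 to 13311433) encodes DNA ligase I, which seals Okazaki fragments, the short pieces of the lagging strand. It had 311 and 288 CPM in the libraries labelled KO, against 357 and 376 CPM in those labelled WT. The log2 fold change was −0.29 (SE 0.11; edgeR adjusted p = 0.329), and both libraries labelled KO lay lower. Of the RPA subunits, which coat single strands, Rpa1 (382 and 374 CPM against 298 and 432 CPM) and Rpa2 (133 and 137 CPM against 134 and 162 CPM) overlapped, and Rpa3 (32.1 and 30.8 CPM against 29.0 and 29.4 CPM) lay higher in the libraries labelled KO.

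Fen1 (ENSMUSG00000024742, chromosome 19 from 10199132 to 10204169), the nuclease that trims the flaps of Okazaki fragments, differed between replicates rather than between labels. It had 257 and 78.2 CPM in the libraries labelled KO, against 234 and 77.0 CPM in those labelled WT. In each label replicate 1 was the higher, 3.29-fold for the label KO and 3.04-fold for the label WT. Its mean was 168 ± 126 CPM against 156 ± 111 CPM (SD, n = 2 each), and the log2 fold change of 0.11 (SE 0.62; edgeR adjusted p = 0.962) moved between −0.99 and 1.13 when 1 library at a time was dropped. Of 9234 genes with a mean of at least 10 CPM, 5 were at least 3-fold higher in replicate 1 of both labels and 2 at least 3-fold higher in replicate 2 of both, 0.0758% together. Fen1 was selected for this count after its values were seen. Apart from Fen1, no replication gene differed by more than 1.56-fold between replicates of a label, the value for Dbf4.

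Fen1 shares 1909 exon bases with Gm10143 and 130 with Tmem258, both on the opposite strand, and the sources used here do not say if reads were counted by strand. Tmem258 had 39.5 and 36.3 CPM in the libraries labelled KO, against 59.7 and 61.8 CPM in those labelled WT. Gm10143 had 1.05 and 1.11 CPM against 1.23 and 2.47 CPM. Whether these overlaps bear on the split of Fen1 was not tested. In all, 15 of the 49 genes share exon bases with a gene on the opposite strand in GENCODE M21, among them Orc2 (1150 bases with Nif3l1), Ccne2 (609 bases with Ints8) and Lig1 (247 bases with Zswim9). Their counts are uncertain to that extent.

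The fork protection genes keep a stalled fork coupled to its helicase. Tipin had 123 and 124 CPM in the libraries labelled KO, against 111 and 103 CPM in those labelled WT, while its partner Timeless had 97.6 and 98.3 CPM against 102 and 112 CPM. The pair lay apart in opposite directions, with log2 fold changes of 0.21 (SE 0.10; edgeR adjusted p = 0.458) and −0.13 (SE 0.11; adjusted p = 0.684). Clspn, which encodes claspin, the mediator of checkpoint kinase activation, overlapped between labels.

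**Figure D3:**
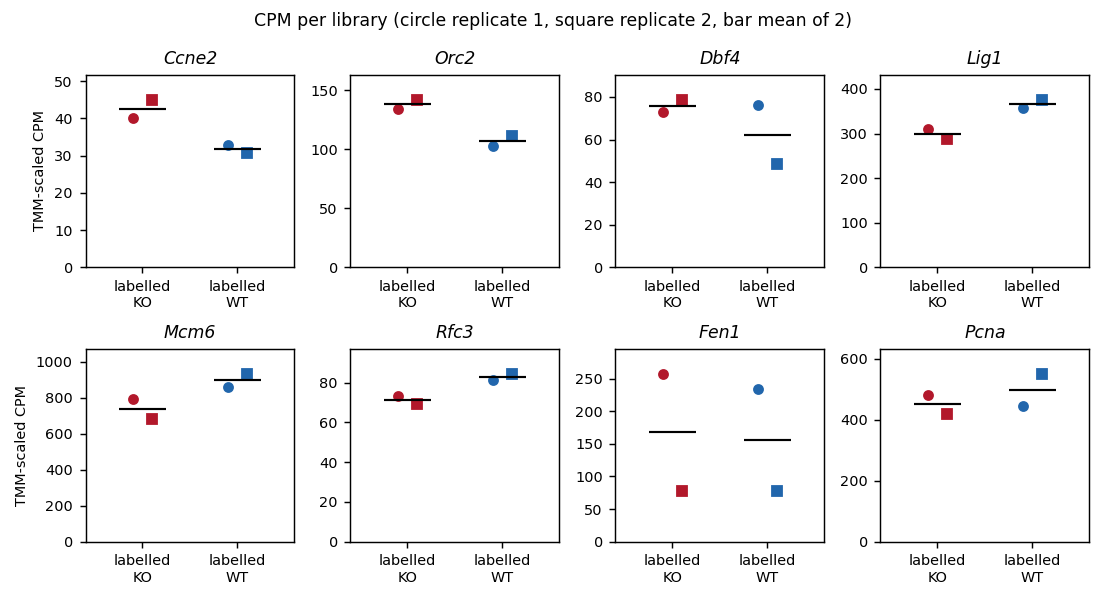
TMM-scaled CPM per library for 8 members, labelled KO left of labelled WT in each panel; circles are replicate 1, squares replicate 2, and bars the mean of 2. Ccne2 and Orc2 lie higher and Lig1, Mcm6 and Rfc3 lower in both libraries labelled KO, Dbf4 and Pcna overlap, and Fen1 splits by replicate number.

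Differences between libraries of the same label and of different labels covered ranges that overlapped. The median absolute log2 difference over the 49 genes was 0.106 between the libraries labelled KO and 0.124 between those labelled WT. Between labels it was 0.119 for the first library of each and 0.206 for the second library of each. It was 0.165 for the first library labelled KO with the second labelled WT. For the second labelled KO with the first labelled WT it was 0.125. So 3 of the 4 pairs across labels exceeded both pairs within a label, 1 of them by 0.125 against 0.124. Absolute differences over all genes tested were larger in every pair. Their medians were 0.166 within the label KO and 0.196 within the label WT. Across labels they were 0.215 for the first libraries, 0.246 for the second, and 0.192 and 0.213 for the crossed pairs in the order above. For the pair of first libraries the median signed difference, labelled KO minus labelled WT, was 0.02, and for the pair of second libraries −0.14. Over all genes tested these medians were −0.01 for both pairs.

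The order of libraries was uneven. The second library labelled KO was the lowest of the 4 in 24 of the 49 genes, where it was the lowest in 26.5% of all genes. The second library labelled WT was the highest in 21, or 42.9%, where it was the highest in 27.7% of all genes. The summed level of the 49 genes was 9614 and 8690 CPM in the libraries labelled KO, against 9337 and 10030 CPM in those labelled WT, so the sums overlapped.

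**Figure D4:**
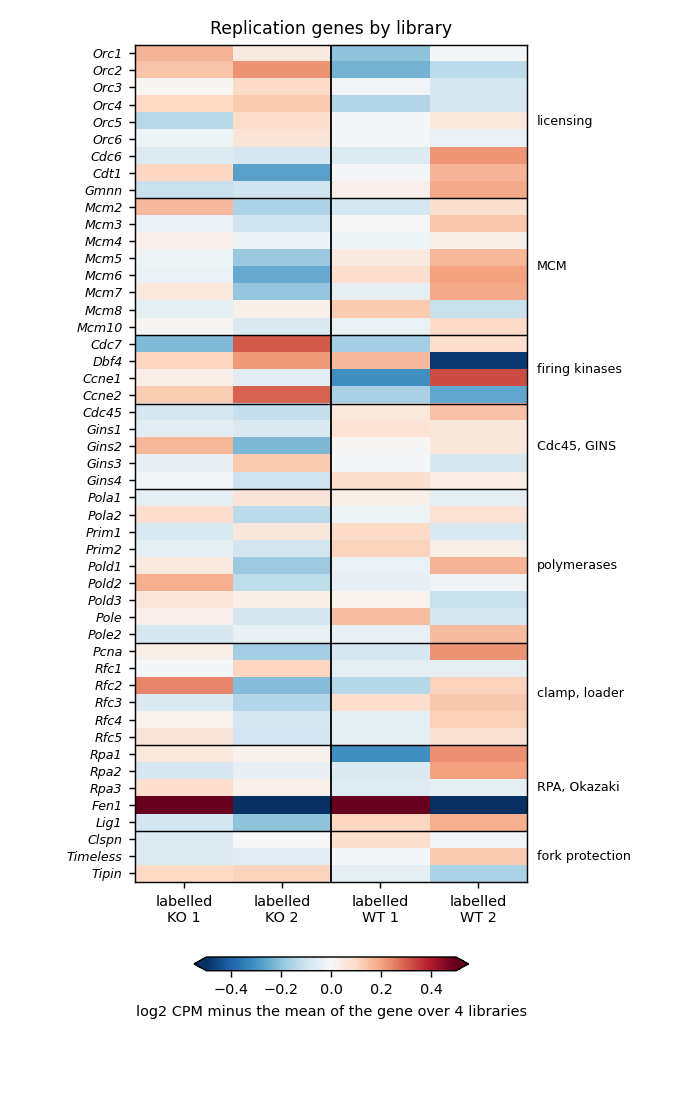
Log2 CPM of each of the 49 replication genes in each library, as the difference from the gene's own mean over 4 libraries, labelled KO to the left of the line and labelled WT to the right, grouped by role. The colour scale ends at 0.5 in either direction, which Fen1 exceeds in every library. Labelled KO 2 is the lowest library in 24 genes and labelled WT 2 the highest in 21.

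Levels can be compared between genes only per length. The authors' FPKM (fragment counts scaled by gene length and library size) placed 46 of the 49 genes above the median of 5.17 FPKM over all genes tested. Mcm5 was the highest, with 147 and 135 FPKM in the libraries labelled KO, against 156 and 166 FPKM in those labelled WT. Orc4 was the lowest, with 3.9 and 4.09 FPKM against 3.34 and 3.4 FPKM.

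The subunits of a complex were not level with each other on this scale. As the mean of 4 libraries, Mcm2 to Mcm7 lay between 70.5 FPKM for Mcm2 and 151 FPKM for Mcm5, the ORC genes between 3.68 FPKM for Orc4 and 26.0 FPKM for Orc2, and the GINS genes between 7.27 FPKM for Gins3 and 51.6 FPKM for Gins4. Cyclin E1 exceeded cyclin E2, with 41.8 and 40.3 FPKM for Ccne1 and 5.1 and 5.88 FPKM for Ccne2 in the libraries labelled KO. The gene length behind the FPKM was a median of 1.37 times the total exon length in GENCODE M21, and 0.346 times for Pola2, so levels were also taken as CPM per kilobase of that exon length. The MCM subunits then lay between 91.0 for Mcm2 and 207 for Mcm5, Orc4 stayed the lowest of the 49 at 5.03, and Pola2 moved to rank 27, against rank 8 by FPKM.

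Other genes of the S phase programme, from lists chosen with earlier results of these data known, likewise held few differences. Of 49 further replication factors 48 were tested, 0 were called, and 23 were positive and 25 negative, with a median of −0.03. At an unadjusted p under 0.05, 1 was higher and 2 lower. Top1, a topoisomerase that relaxes DNA ahead of the fork, had 253 and 282 CPM in the libraries labelled KO, against 212 and 203 CPM in those labelled WT (log2 fold change 0.37; edgeR adjusted p = 0.253). Dna2, a flap nuclease, was at 0.27 (adjusted p = 0.476). Pold4, the smallest subunit of polymerase delta, had 12.6 and 11.1 CPM against 19.1 and 16.7 CPM (log2 fold change −0.60; edgeR adjusted p = 0.246), and Asf1b, a histone chaperone, was at −0.29 (adjusted p = 0.38).

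Genes that supply deoxynucleotides had 5 positive and 8 negative log2 fold changes, a median of −0.07 and 0 calls. Samhd1, which breaks down deoxynucleotides, had 239 and 214 CPM in the libraries labelled KO, against 328 and 280 CPM in those labelled WT (log2 fold change −0.42; edgeR adjusted p = 0.251), and Tk1, thymidine kinase, was at −0.27 (adjusted p = 0.505). Shmt1, a folate enzyme that feeds thymidylate synthesis, was at 0.30 (adjusted p = 0.396) and Dctd, deoxycytidylate deaminase, at 0.24 (adjusted p = 0.564).

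Of 25 mitosis genes 20 had negative log2 fold changes, with a median of −0.13, against 7018 of 13528 and a median of −0.01 over all genes tested. The label KO lay below without overlap in 12 of the 25, where 23.3% of all genes did, and above in 2, where 21.5% did. None was called by edgeR. DESeq2 called 1 of the 25, where it called 2.04% of all genes: Ccnb2, which encodes cyclin B2, with 37.8 and 30.5 CPM in the libraries labelled KO, against 64.3 and 61.3 CPM in those labelled WT. Its log2 fold change was −0.88 (SE 0.16), with an adjusted p of 0.0981 by edgeR and 0.000753 by DESeq2. Birc5, which encodes survivin, a mitotic complex subunit, was at −0.28 (edgeR adjusted p = 0.374), while Nuf2, a kinetochore protein, was at 0.17 (adjusted p = 0.659) and Anln, a cytokinesis protein, at 0.18 (adjusted p = 0.694). Whether mitosis genes differ from replication genes in their change between labels was not tested. The CD8 T cell markers had a median of −0.18, with 10 of 12 negative, and their part in either list was not tested.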

How the data were processed

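RNA was sequenced from 4 libraries, 2 per label; per the labels' protocols, mRNA was isolated from total RNA and prepared with a strand-preserving kit. Per the file headers, the authors deposited whole-number counts per gene without normalization, and FPKM per gene. The submitters' processing notes name kallisto and GRCm38, with no version or role; the sources used here do not say how the counts were made or if strand was used. Another 8 value columns of the table match no sample and stayed out. Columns were joined to samples through the description code and grouped by title.

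Genes were filtered by filterByExpr, which left 13528 of 53465, and TMM factors were applied. The two-sided quasi-likelihood test was run in edgeR 4.0.16 under R 4.3.3 on the label KO minus the label WT, with Benjamini-Hochberg adjustment over all genes and a threshold of 0.05. CPM are TMM-scaled. Standard errors are the absolute log2 fold change over the square root of F, and 95% limits use 6.87 degrees of freedom. The biological coefficient of variation was 15.9%. Replicates differed well beyond counting noise (chi-square per gene 14.0 for the label KO, 19.4 for the label WT). Alternatives used DESeq2 1.42.0, limma 3.58.1 on log2(FPKM + 1) and log2(FPKM + 0.1), other scalings, no filter, each library left out, and replicate blocks. GENCODE M21 gave exon lengths and overlaps, and 48 of the 49 genes lie at the same position in it as in the deposited table.

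The members and lists were chosen with earlier results of these data known. Every member may be named. By rule, values per library are given for Mcm2 to Mcm7, Orc1, Cdc6, Cdt1, Gmnn, Cdc45, Pcna, Ccne1 and Ccne2, for members with an unadjusted p under 0.05, and for the 3 largest differences in each direction; other members with such values were picked after their values were seen. Of the other lists, the 2 genes with the smallest p in each direction are named.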

Additional observations from a re-analysis of the deposited data

How the results depend on the processing

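No replication gene was called under any of the 12 alternatives, and the smallest adjusted p any of them gave a member was 0.0981, for Dbf4 without labelled WT replicate 1. The median log2 fold change of the 49 genes was −0.04 as reported and ran from −0.11 without labelled KO replicate 1 to 0.00 without labelled WT replicate 2, with −0.05 to −0.02 under settings that kept all libraries. It was −0.05 without Fen1, a choice made after seeing the data. Called genes over the whole table numbered 276 by DESeq2, 146 with no filter on low counts, 5 on log2(FPKM + 1) and 4 on log2(FPKM + 0.1), against 28 as reported, and 3 to 266 as single libraries were left out (54 without labelled KO replicate 1, 3 without labelled KO replicate 2, 266 without labelled WT replicate 1, 199 without labelled WT replicate 2); the cause was not tested. Such a fit takes the spread of the lone library from the other label. Genes with no overlap between labels numbered 21 of 49, and 27 to 41 with a library left out, where fewer values can overlap. Ppm1k ran from 0.73 to 1.24, and passed without labelled WT replicate 1 (1.24, adjusted p = 0.0438). With the replicate number as a block 123 genes and 0 replication genes were called. The deviations of same-numbered libraries correlated at −0.168 over all genes tested. A single correlation over 4 libraries cannot decide if the numbers pair the samples. The crossed pairing, added after seeing the data, called 12 genes and 0 replication genes.

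Of 588 refitted values of the 49 genes, 38 had the other sign, 31 of them with a library left out. All 38 were among 21 genes, and the other 28 genes kept their sign throughout. None of the 49 passed the test. With libraries left out, the log2 fold changes were −0.16 to 0.06 for Orc5, −0.35 to 0.02 for Cdt1, −0.15 to 0.17 for Mcm2, −0.03 to 0.03 for Mcm4, −0.14 to 0.11 for Mcm8, −0.18 to 0.34 for Cdc7, 0.00 to 0.65 for Dbf4, −0.34 to 0.30 for Ccne1, −0.26 to 0.14 for Gins2, −0.04 to 0.07 for Pola1, −0.15 to 0.07 for Pola2, −0.11 to 0.07 for Prim1, −0.10 to 0.22 for Pold2, −0.19 to 0.06 for Pole, −0.28 to 0.02 for Pcna, −0.21 to 0.25 for Rfc2, −0.15 to 0.01 for Rfc4, −0.11 to 0.06 for Rfc5, −0.19 to 0.34 for Rpa1, −0.25 to 0.01 for Rpa2 and −0.99 to 1.13 for Fen1. Mcm4 turned to 0.00 with RLE size factors and DESeq2, and to 0.01 with library totals alone and on either FPKM scale, and Mcm8 to 0.00 on both FPKM scales. Ccnb2 passed by DESeq2 (−0.87) and with no filter (−0.89).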
